A study of Mus musculus with 2 samples.

Results

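The 10 AP-1 and BATF factor genes Fos, Fosb, Fosl2, Jun, Junb, Jund, Atf3, Batf, Batf2 and Batf3 were described in mouse bone marrow-derived macrophages stimulated again with Lipid A. Members were chosen by gene symbol in the deposited transcript tables, and all 10 were found among 55536 annotated genes. There was 1 group of 2 libraries, replicates 1 and 2. The cells were primary macrophages grown from the bone marrow of C57BL/6J mice, with no other allele or agent given in the labels. Lipid A is the part of lipopolysaccharide that Toll-like receptor signalling recognises. The cells received it at 100 ng/ml for 12 h, were washed and kept without it for 12 h, and received it again at 100 ng/ml for 300 min. Another label field names the agent lipoprotein A, and the labels do not settle which name is right. Both libraries share a donor identifier but not a biosample identifier, and whether they came from separate animals is not stated. The sex and age of the animals were not collected. The series as used here has no other treatment or time, so no response to Lipid A could be tested, and all values below are levels within 1 group.

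AP-1 factors are basic leucine zipper proteins that bind DNA only as pairs. Jun proteins pair with each other, with Fos proteins and with ATF and BATF proteins, whereas Fos proteins need a partner from another family. Many Fos and Jun genes are immediate early genes, whose short-lived transcripts appear soon after a signal through MAP kinases and then fade. BATF proteins lack the activation domains of Fos proteins, pair with Jun proteins, and bind with interferon regulatory factors at composite DNA elements. In macrophages Atf3 is known as a stress-induced factor that limits the transcription of cytokine genes after Toll-like receptor signalling.

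The members share a short stretch of the basic region, the part of the protein that touches DNA. The coding DNA of this stretch is shown because its sixth and eighth codons set the BATF genes apart from the other members. The stretch was found as the codons for an asparagine, any pair, a pair of alanines, any pair, a cysteine or serine, and an arginine. It occurred once in the coding sequence of each of the 10 members. Capitals mark the eighth codon, and sequences are 27 bases of the coding strand, read 5′ to 3′ from GENCODE M21 transcripts.
Fos: aataagatggctgcagccaagTGCcgg
Fosb: aacaagctggctgcagctaagTGCagg
Fosl2: aacaagctagctgcagccaagTGTcgg
Jun: aaccgcattgccgcctccaagTGCcgg
Junb: aacaggctggcggccaccaagTGCcgg
Jund: aaccgcatcgccgcctccaaaTGCcgc
Atf3: aataaaattgctgctgccaagTGTcga
Batf: aatcgcatcgctgcccagaagAGCcga
Batf2: aaccgagtggctgcccagcgcAGCcgg
Batf3: aaccgggttgcagctcagaggAGCcgg
The eighth codon was a cysteine codon, TGC or TGT, in the 7 Fos, Jun and Atf3 genes and the serine codon AGC in the 3 BATF genes. The sixth codon was the glutamine codon CAG in the 3 BATF genes and in no other member. Over the 45 pairs of members, between 12 and 24 of the 27 bases were the same, with a median of 17. Jun and Jund were the most alike, with 24 bases the same, and Atf3 and Batf2 the least alike, with 12. Atf3 shared 22 bases with Fos, against the 23 that Fos shared with Fosb and with Fosl2.

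Library depth was 50503159 counts over genes in replicate 1 and 46342331 in replicate 2. A count of 0 allows up to 3 counts, which is 0.0594 CPM (counts scaled to library size) in replicate 1 and 0.0647 CPM in replicate 2. Levels are the deposited gene TPM, which is scaled to gene length and to a fixed total per library and is given as the mean ± SD of the libraries. Each of the 14 macrophage markers stood at 10 TPM or more in both. The summed level of 9 neutrophil markers came to 67.9 TPM in replicate 1 and to 4.46 TPM in replicate 2. Most of it came from S100a9, at 37.85 and 2.23 TPM, and S100a8, at 23.12 and 1.57 TPM. Of the 9, 2 stood at 1 TPM or more in both, and Ly6g and Retnlg had 0 counts in both. The 6 dendritic cell markers summed to 1.03 TPM in replicate 1 and 1.05 TPM in replicate 2, with none of the 6 at 1 TPM and Cd209a at 0 in both. The 9 markers of T, NK and B cells summed to 3.61 TPM in replicate 1 and 2.71 TPM in replicate 2. Cd79b alone gave 2.92 and 2.65 TPM of these sums, and 7 of the 9 had 0 counts in replicate 2. The 9 fibroblast and endothelial markers summed to 16.6 TPM in replicate 1 and 50.4 TPM in replicate 2, most of it from Kdr. In bulk RNA, fewer cells of a type and less RNA per cell cannot be told apart.

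Atf3 and Batf were the most abundant members, the Jun genes and Batf2 were intermediate, Fos and Batf3 were low, and Fosl2 and Fosb were barely detected. Of the 10 members, 6 reached 10 TPM in both libraries, against 11.2% of all annotated genes and 27.3% of protein-coding genes. Atf3 and Batf reached 100 TPM in both, and Fosl2 and Fosb stayed under 1 TPM in both. The median of the members came to 53.4 TPM in replicate 1 and to 42.0 TPM in replicate 2, against a median of 0.28 and 0.27 TPM over protein-coding genes. Summed, the members came to 928 TPM in replicate 1 and 1023 TPM in replicate 2. Ordered by mean TPM, 7 of the 9 neighbouring pairs did not overlap between libraries. The exceptions were Atf3 with Batf and Jund with Jun, whose libraries overlapped.

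**Figure D1:**
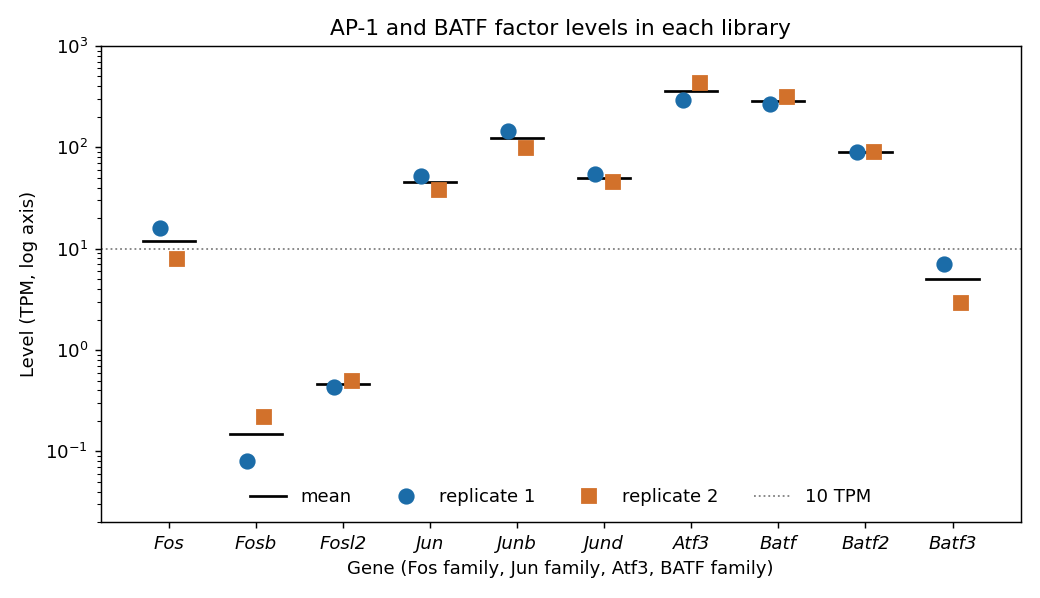
Level of each member in TPM on a log axis, with 1 point per library and a bar at the mean of the 2 libraries. Atf3 and Batf lie highest, and Fosl2 and Fosb lie under 1 TPM in both libraries.

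Of the Fos genes, which supply the partners that make the classical Fos and Jun dimer, Fos carried nearly all of the transcripts, at a low level. Fos (chromosome 12, 85473890 to 85477273, plus strand) stood at 15.9 TPM in replicate 1 and at 7.89 TPM in replicate 2. Its expected counts were 1012 and 464. Replicate 1 was the higher library, and the mean was 11.9 ± 5.66 TPM (SD, n = 2). Fos-201, the protein-coding transcript with 4 exons, held 94.4% ± 0.647 of the TPM of the gene. In a second deposited quantification of transcripts, Fos-201 held 96.4% in replicate 1 and 78.5% in replicate 2. Fosl2 (chromosome 5, 32135801 to 32157842, plus strand) encodes Fra-2, a Fos protein without the strong activation domain of c-Fos. It had 98 and 101 counts, or 0.43 TPM in replicate 1 and 0.49 TPM in replicate 2. All of its reads were assigned to Fosl2-201. Fosb (chromosome 7, 19302696 to 19310051, minus strand), an immediate early gene closely related to Fos, had 10 and 26 counts. In TPM this was 0.08 for replicate 1 and 0.22 for replicate 2. The exact 95% Clopper-Pearson interval ran from 0.0950 to 0.364 CPM in replicate 1 and from 0.366 to 0.822 CPM in replicate 2. In replicate 1, 9 of the 10 Fosb counts were assigned to Fosb-205, and in replicate 2 all 26 were assigned to Fosb-201. Both are protein-coding, and these counts are too few to compare transcripts. The Fos genes together summed to 16.4 TPM in replicate 1 and 8.60 TPM in replicate 2, of which Fos made 96.9% and 91.7%.

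Of the Jun genes, Junb was the most abundant in both libraries, and Jun and Jund stood at similar levels below it. Junb (chromosome 8, 84974484 to 84978718, minus strand) encodes a Jun protein that can dampen the activity of c-Jun and is a partner of BATF in immune cells. It stood at 146 TPM in replicate 1 and at 98.9 TPM in replicate 2, with 8204 and 5078 counts, and a mean of 123 ± 33.5 TPM. Jun (chromosome 4, 95049034 to 95052222, minus strand), a gene of 1 exon that encodes c-Jun, stood at 52.7 TPM in replicate 1 and at 38.3 TPM in replicate 2. Jund (chromosome 8, 70698949 to 70700616, plus strand), also of 1 exon and known for steady expression in resting cells, stood at 54.2 TPM in replicate 1 and at 45.8 TPM in replicate 2. Replicate 1 was higher for all 3 genes. Their shares of the summed Jun level differed little between libraries, with Junb at 57.8% and 54.1%, Jun at 20.8% and 20.9%, and Jund at 21.4% and 25.0% in replicates 1 and 2. On the log2 scale of TPM plus 1, Junb exceeded Jun by 1.40 ± 0.08, and Jund exceeded Jun by 0.15 ± 0.15, which is within the spread of the libraries.

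The Jun genes summed to 253 TPM in replicate 1 and 183 TPM in replicate 2, so that Jun transcripts exceeded Fos transcripts by 4.06 ± 0.28 on the same log2 scale (n = 2). Fosl2 stood below Fos by a log2 difference of -3.07 ± 0.70, and Fosb below Fos by -3.42 ± 0.78. These last values are compressed by the pseudocount of 1 TPM, since Fosl2 and Fosb lay under it.

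Atf3, a partner of Jun proteins from the ATF and CREB group, had the highest mean gene level of the 10 members. Without a short transcript described below, the mean of Atf3 was level with that of Batf. Atf3 (chromosome 1, 191170296 to 191218039, minus strand) stood at 295 TPM in replicate 1 and at 427 TPM in replicate 2, with a mean of 361 ± 93.2 TPM. It ranked 513 in replicate 1 and 341 in replicate 2 among all genes. On the log2 scale, Atf3 exceeded Fos by 4.13 in replicate 1 and 5.59 in replicate 2. The difference in Atf3 TPM between the libraries was not seen in its counts, which were 18280 in replicate 1 and 17652 in replicate 2, or 362 and 381 CPM.

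The libraries differed in the TPM of a short processed transcript, Atf3-202, and hardly in that of the protein-coding one. The protein-coding transcript Atf3-201, of 1984 bases and 4 exons, stood at 292 TPM in replicate 1 and at 288 TPM in replicate 2. Its mean of 290 ± 3.16 TPM was level with that of Batf, at 289 ± 32.0 TPM, and in replicate 2 it lay below Batf, at 312 TPM. Atf3-202, of 517 bases and 5 exons, stood at 3.01 TPM in replicate 1 and at 139 TPM in replicate 2, from 27.8 and 1201 expected counts. It held 1.02% of the TPM of the gene in replicate 1 and 32.6% in replicate 2. By expected counts, which are not divided by transcript length, its share was 0.152% in replicate 1 and 6.80% in replicate 2. The second transcript quantification, made directly from the reads, also placed it low in replicate 1, at 9.19 TPM, and high in replicate 2, at 142 TPM. The deposited effective length of Atf3, by which TPM divides the counts, was 1702 bases in replicate 1 and 1246 bases in replicate 2. All 517 bases of Atf3-202 also lie in Atf3-201, and a single junction sets it apart. This junction joins base 191177447 to base 191177340 of chromosome 1 and leaves out 106 bases, all of them coding sequence of Atf3-201. The sequences around it are shown because reads that cross this point differ between the transcripts. Each is 30 bases on the minus strand of mm10, with the bases after 191177447 in capitals.
Atf3-202: caacatccaggccagAGCTGAGATTCGCCA
Atf3-201: caacatccaggccagGTCTCTGCCTCAGAA
The deposited tables hold no count of reads across this junction, so how many reads support it was not tested. The upstream transcript Atf3-203, which starts at 191218039, had 0 expected counts in both libraries.

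**Figure D2:**
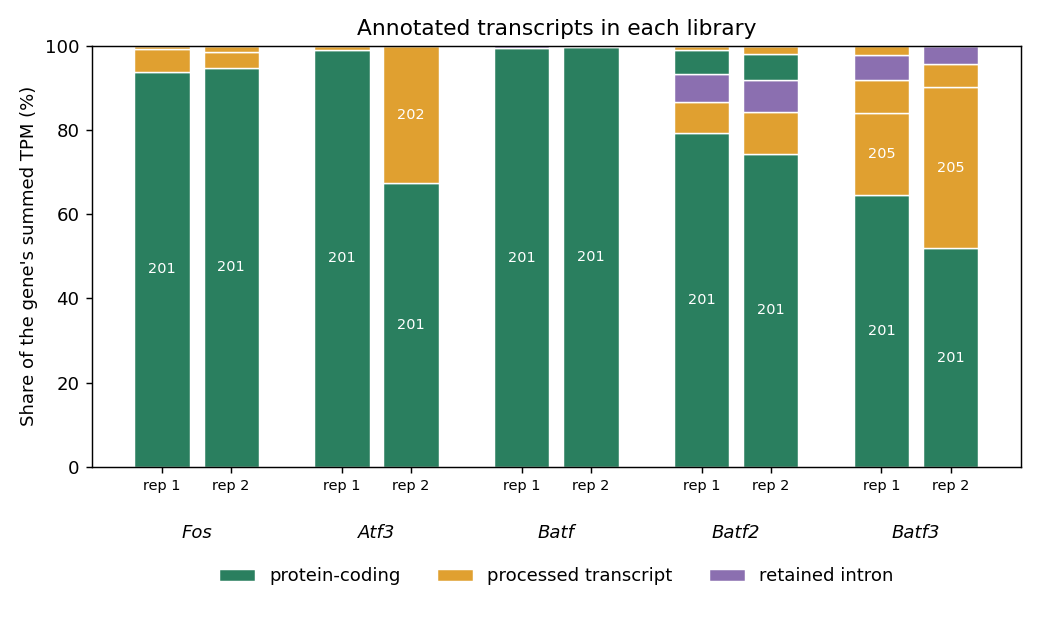
Share of the summed TPM of each gene held by its annotated transcripts, in percent, with 1 bar per library for 5 members with several annotated transcripts, coloured by transcript class. Atf3-202 fills 32.6% of the bar of replicate 2 and 1.02% of that of replicate 1, and Batf is nearly all Batf-201 in both.

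Of the BATF genes, Batf overlapped Atf3 in level, Batf2 was intermediate and Batf3 low. Batf (chromosome 12, 85686669 to 85709087, plus strand), which pairs with Jun proteins and works with IRF4 and IRF8 in lymphocytes and dendritic cells, stood at 267 TPM in replicate 1 and at 312 TPM in replicate 2. Its counts were 6643 and 7168, and its mean was 289 ± 32.0 TPM. Replicate 2 was the higher library. The protein-coding transcript Batf-201 held 99.4% of the TPM in replicate 1 and 99.8% in replicate 2. Batf2 (chromosome 19, 6140983 to 6172476, plus strand), which is induced in macrophages by interferon gamma and lipopolysaccharide, stood at 89.1 TPM in replicate 1 and at 89.5 TPM in replicate 2. Relative to its level, the libraries lay closest together for this member, at 89.3 ± 0.311 TPM. Batf2-201 held 76.8% ± 3.53 of its TPM. Processed transcripts and transcripts with a retained intron held 14.9% in replicate 1 and 19.6% in replicate 2.

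Batf3 (chromosome 1, 191097847 to 191108945, plus strand), known for its need in the development of cross-presenting dendritic cells, had 119 and 40 counts. In TPM this was 7.09 for replicate 1 and 2.88 for replicate 2. Replicate 1 was the higher library. Of its TPM, Batf3-201, a protein-coding transcript, held 64.5% in replicate 1 and 51.9% in replicate 2. The second quantification gave Batf3-201 49.6% in replicate 1 and 32.1% in replicate 2. Summed, the BATF genes came to 363 TPM in replicate 1 and 404 TPM in replicate 2, or 39.1% and 39.5% of the summed level of the 10 members. The Jun genes made 27.3% and 17.9% and the Fos genes 1.77% and 0.840% of that sum. On the log2 scale, Batf2 stood below Batf by a difference of -1.68 ± 0.15, and Batf3 below Batf by -5.69 ± 0.91.

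Between the libraries, Fos and Batf3 lay furthest apart among the members that passed the filter on low counts, both higher in replicate 1. The filter asked for enough reads in both libraries, and 9 of the 10 members passed, Fosb being the exception. Of these 9, 2 lay 2-fold or more apart after scaling of the counts, where 4.22% of 12543 genes did. Of those genes, 1.91% were higher by as much in replicate 1 and 2.31% in replicate 2. The log2 ratio of replicate 2 over replicate 1 was -1.01 for Fos, with a 95% counting interval of -1.17 to -0.85, so that Fos lay on the 2-fold line. In the second quantification it was -0.96, inside that line. It was -1.45 for Batf3, with an interval of -2.01 to -0.93. Fosb, below the filter, had a ratio of 1.45 with an interval of 0.40 to 2.71. These ratios compare 1 library with another of the same group, and the intervals cover counting error only.

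The 3 Jun genes were all higher in replicate 1, by less than 2-fold. Their log2 ratios were -0.58 for Junb, -0.47 for Jun and -0.25 for Jund. Batf stood at 0.23, Fosl2 at 0.16, Atf3 at 0.07 and Batf2 at -0.03. The median of the 9 members was -0.25, where that of all 12543 genes was 0.00. The intervals of Fosl2 and Batf2 included 0. Marker lists of other cell types also differed between the libraries. The summed neutrophil markers were higher in replicate 1, and the summed fibroblast and endothelial markers were higher in replicate 2, with Kdr at a log2 ratio of 1.91. Of the 7 fibroblast and endothelial markers that passed the filter, 6 were higher in replicate 2. Pecam1 stood at only 0.24, and Cdh5 was higher in replicate 1, at -0.95. The dendritic cell markers had near-equal sums, but their members went in opposite directions. Xcr1 had 39 counts in replicate 1 and 75 in replicate 2, whereas Clec9a had 19 and 4 and Siglech 19 and 6. The part of any of these markers in the ratios of the members was not tested.

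**Figure D3:**
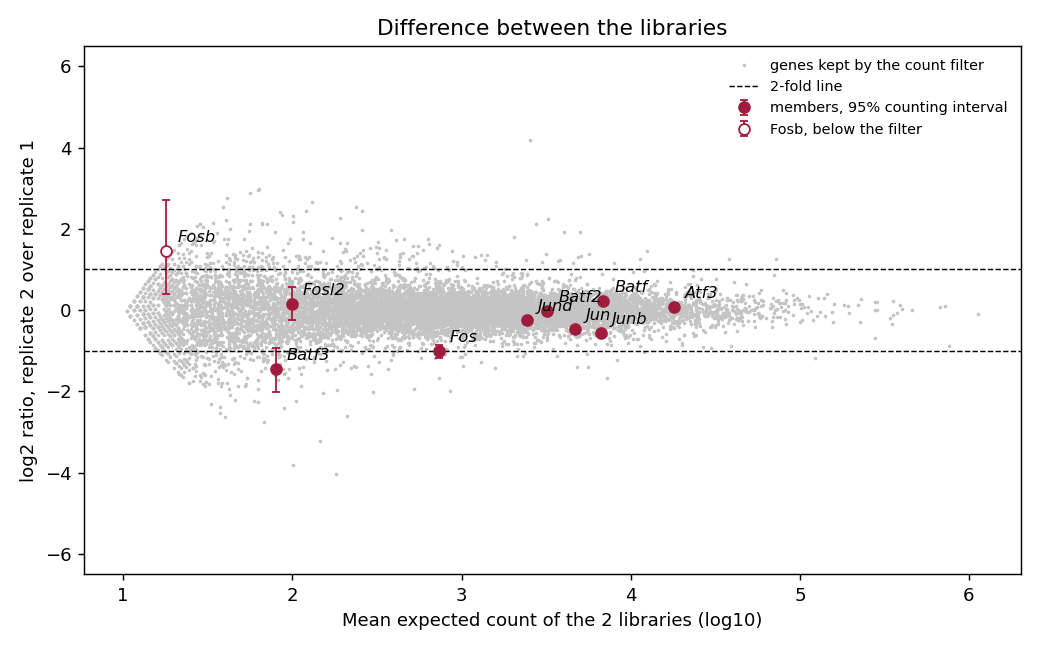
The log2 ratio of replicate 2 over replicate 1 against the log10 of the mean expected count, for genes that passed the filter (grey) and the members (red, with 95% counting intervals; open for Fosb). Fos lies on the lower dashed 2-fold line and Batf3 past it, and the Jun genes lie below 0 and inside it.

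The level of Jund depended on the quantification more than that of the Jun genes beside it. The second quantification held 109.8% of the gene counts of the first in replicate 1 and 108.8% in replicate 2. For 8 of the members its count was between 104% and 116% of the first in both libraries. For Jund it was 146% in replicate 1 and 148% in replicate 2, with 4034 and 3167 counts, or 69.4 and 60.1 TPM. For Batf3 it was 124% in replicate 1 and 142.5% in replicate 2. In that quantification Jund exceeded Jun in both libraries, at 69.4 and 60.1 TPM for Jund against 51.7 and 38.2 TPM for Jun. GENCODE M21 gives Jund 1 transcript that starts at 70698949, whereas RefSeq starts the gene 1210 bases upstream, at 70697739. The antisense gene Gm11175 overlaps 877 of the 1668 bases of Jund-201 and had 0 counts in both libraries. Whether reads were counted by strand is not stated, and without strand a gene and its antisense partner cannot be told apart. The antisense gene Junos overlaps 232 of the 3189 bases of Jun-201 and had 13.3 and 3.05 expected counts. Prdx2, on the other strand and at 153 and 167 TPM, overlaps the span of Junb but no exon of Junb-201.

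**Figure D4:**
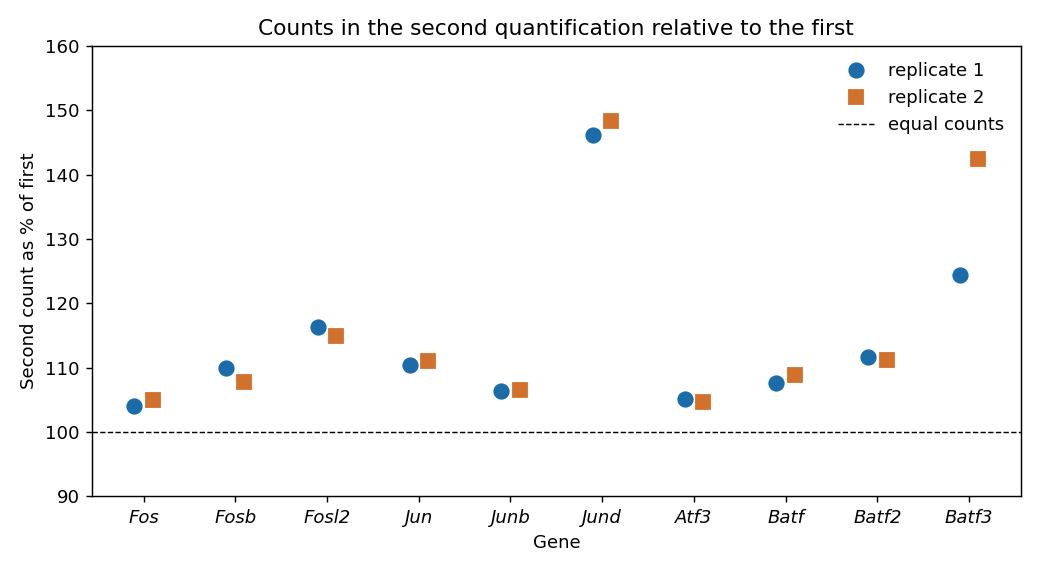
Count of each member in the second quantification as a percent of its count in the first, with 1 point per library and a dashed line at equal counts. Jund lies at 146% and 148%, and Batf3 at 124% and 142.5%.

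Promoter sequence from RefSeq (GRCm38.p6, the assembly that mm10 names) was given for 9 of the 10 members, Batf2 being the exception. Each window ran from 250 bases before to 50 bases after the RefSeq start. The RefSeq start lay 671 bases from the start of Fosl2-201 and 1210 bases from that of Jund-201. The windows of Fosl2 and Jund therefore do not cover the starts of these transcripts. The AP-1 element TGACTCA was in none of the 9 windows on either strand, and neither was the cyclic AMP response element TGACGTCA. These elements were in 5.20% and 1.79% of all 32851 promoter windows. The first 6 bases of TGACGTCA, TGACGT, were in the windows of 3 members, Fos, Atf3 and Batf, and in 7.51% of all windows. The Jun window held TGACATCA, present in 3.62% of windows, and TTACCTCA, present in 0.889%. These 8-base letters differ from TGACGTCA and do not overlap each other. They were fixed search strings, not the outcome of a search over all variants. Their percentages therefore do not measure how unusual the Jun matches are. The stretches are shown because members with the same 6 bases differed widely in level. Each is read 5′ to 3′ on the strand of the gene, with the match in capitals (for Atf3 the reverse complement).
Fos, chr12:85473812-85473841, plus strand: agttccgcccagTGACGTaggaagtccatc
Batf, chr12:85686610-85686639, plus strand: tttctaacttgtTGACGTttccgcccatgt
Atf3, chr1:191183334-191183353, minus strand: attaatagcattACGTCAgc
Jun, chr4:95052248-95052279, minus strand: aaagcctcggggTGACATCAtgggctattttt
Jun, chr4:95052367-95052398, minus strand: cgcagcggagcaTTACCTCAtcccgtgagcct
The Fos match began 66 bases before the RefSeq start, the Batf match 98 bases, the Atf3 match 8 bases and the Jun matches 45 and 164 bases before it. Atf3-201 starts 7 bases upstream of the RefSeq start, so most of the Atf3 match lies inside that transcript. Atf3 and Batf, with the 6 bases, were the highest members, and Fos, with the same bases, had 15.9 TPM in replicate 1 and 7.89 TPM in replicate 2. A match is a description of the letters in this window only.

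Other basic leucine zipper genes, which can pair with AP-1 factors or share their elements, were mostly expressed. Of 25 gene entries for 24 symbols, 17 (68%) stood at 10 TPM or more in both, against 27.3% of protein-coding genes. The medians were 19.7 and 18.0 TPM in replicates 1 and 2. Ddit3, the stress-induced CHOP gene, was the highest, with 192 TPM in replicate 1 and 270 TPM in replicate 2. Its other entry under the same symbol had 0 and 1 counts. Atf4, the factor of the integrated stress response, followed at 158 ± 29.1 TPM, and Nfe2l2, the oxidative stress factor NRF2, at 141 ± 5.25 TPM. Maf stood at 111 ± 8.69 TPM. Jdp2, a repressive Jun partner close to Atf3, stood at 30.1 ± 0.177 TPM, and Atf2, a Jun partner activated by stress kinases, at 17.6 ± 0.523 TPM. Fosl1, the remaining Fos gene, which encodes Fra-1, had 0 counts in both libraries. None of the 22 entries that passed the filter lay 2-fold apart between the libraries, against 4.22% of all genes that passed.

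The MAP kinase cascade that acts on AP-1 had 12 of 20 genes at 10 TPM or more in both libraries. This was 60%, against 27.3% of protein-coding genes, and the medians were 16.3 and 18.9 TPM in replicates 1 and 2. Mapkapk2, the p38 target kinase MK2, led at 376 ± 75.6 TPM, followed by Map2k1 at 99.3 ± 2.54 TPM. Of the JNK genes, whose kinases phosphorylate c-Jun, Mapk9 stood at 47.8 ± 4.18 TPM, Mapk8 at 7.60 ± 0.127 TPM and Mapk10 at 0 counts in both. Map3k8, the TPL2 kinase that links Toll-like receptors to ERK, stood at 37.6 ± 2.56 TPM. None of the 17 that passed the filter lay 2-fold apart, against 4.22% of all genes that passed.

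Other immediate early genes and the factors that switch them on (Srf, Elk1, Elk3 and Elk4) were taken as 1 list and ranged widely in level. Of 17, 6 (35.3%) reached 10 TPM in both libraries, against 27.3% of protein-coding genes. Among the 6 were the switching factors Elk3, Elk4 and Elk1, at means of 20.3, 14.4 and 10.7 TPM. The count and the medians of the list therefore do not describe immediate early genes alone. Their medians were 6.38 TPM in replicate 1 and 3.74 TPM in replicate 2, against 0.28 and 0.27 TPM over protein-coding genes. Klf6 led at 246 ± 22.1 TPM, followed by Ier5 at 37.7 ± 1.31 TPM and Ier3 at 31.4 ± 3.03 TPM. Egr1, a zinc finger factor switched on with Fos, stood at 7.35 ± 0.474 TPM, with 736 and 724 counts. Ier2 stood at 6.38 TPM in replicate 1 and at 3.56 TPM in replicate 2, and Egr3 was lowest at 0.165 ± 0.0495 TPM. Of the 17, 2 lay 2-fold apart, against 4.22% of all genes that passed the filter. These were Klf4 at a log2 ratio of 1.11 and Nr4a2 at -1.06, both named after their values were seen.

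The interferon regulatory factors, which include the partners of BATF proteins, had 7 of 9 genes at 10 TPM or more in both libraries. This was 77.8%, against 27.3% of protein-coding genes. Irf7, a factor that amplifies type I interferon, led at 2212 ± 164 TPM, followed by Irf1 at 264 ± 7.87 TPM and Irf5 at 182 ± 5.78 TPM. Of the known BATF partners, Irf8 stood at 73.8 ± 1.58 TPM, and Irf4 had 21 and 26 counts, or 0.150 ± 0.0283 TPM. None of the 8 that passed the filter lay 2-fold apart, against 4.22% of all genes that passed.

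Genes often described as AP-1 targets had 12 of 20 at 10 TPM or more in both libraries. This was 60%, against 27.3% of protein-coding genes, and the medians were 26.0 TPM in replicate 1 and 21.9 TPM in replicate 2. The highest were the monocyte chemokine Ccl2 at 1286 and 847 TPM, Tnf at 718 and 384 TPM, and the membrane protease Mmp14 at 400 and 364 TPM in replicates 1 and 2. The gelatinase Mmp9 was lowest at 0.295 ± 0.120 TPM. Of the 18 that passed the filter, 2 lay 2-fold apart, against 4.22% of all genes that passed. Among them was Serpinb2 at a log2 ratio of 1.43, named after its value was seen.

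**Figure D5:**
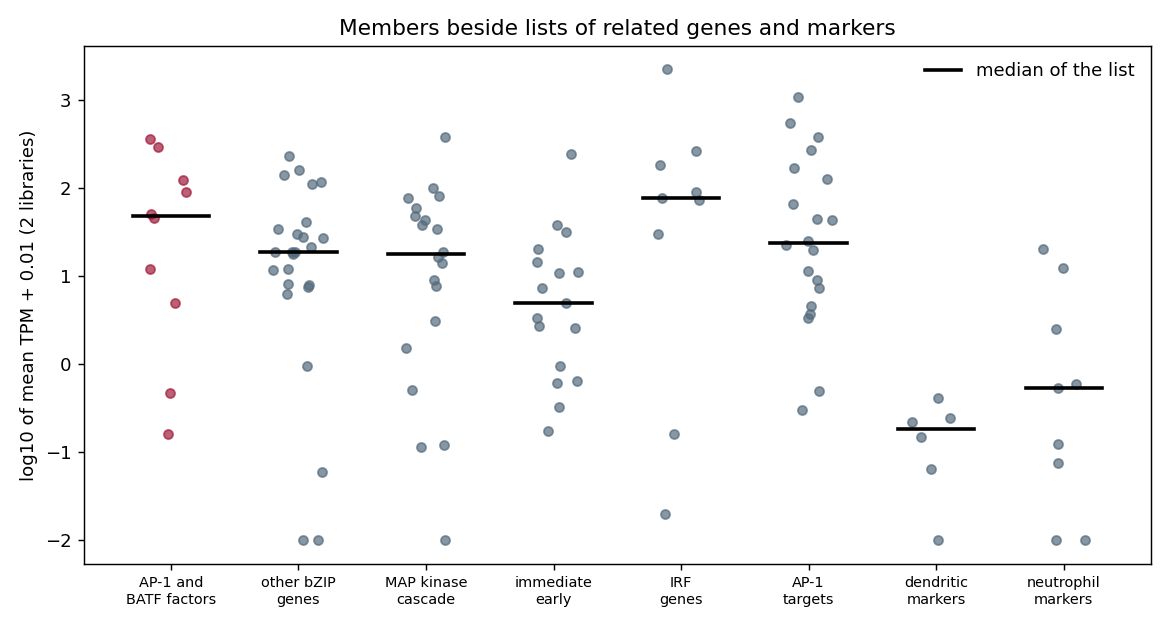
The log10 of mean TPM plus 0.01 for the members (red) and for lists of related genes and marker lists (grey), with 1 point per gene and a bar at the list median. The members spread from Fosb and Fosl2, under 1 TPM, to Atf3 at 361 TPM, and the dendritic cell markers all lie under 1 TPM.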

How the data were processed

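PolyA-selected RNA of 2 libraries of 1 group was analysed. Per the file headers, the authors deposited expected counts, TPM and FPKM for genes, and expected counts, TPM and the percent share of each transcript in its gene. A further deposited transcript table holds estimated counts and TPM, and is called the second quantification. Gene interval bounds and posterior standard deviations, deposited as scores per the file headers, were not used in a result. The README files give mm10, GENCODE M21, a transcriptome alignment as the source of the first tables and the reads as that of the second. For the authors' aligner, quantifiers, their versions and strand handling: not given in the sources used here.

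Entries that name no gene, phiX174 among them, took 0.0631% and 0.0676% of counts in replicates 1 and 2 and were left out. Expected counts were rounded. Counts were scaled by TMM factors in edgeR 4.0.16 (R 4.3.3) after filterByExpr, and log2 ratios used a prior count of 0.5. The ratio step was tested on simulated data. That test scored only genes with higher counts than Fosb, Fosl2 and Batf3, so it does not cover their ratios. DESeq2 1.42.0 gave alternative size factors. Intervals are exact and cover counting error only. Log2 levels used a pseudocount of 1 TPM. Other steps used Python 3.11.15, matplotlib 3.10.9, SciPy 1.17.1, NumPy 2.4.6 and pandas 2.3.3. No test between groups was possible.

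The members and lists were chosen with earlier results of these data known. All members are named, and of each related list the 3 highest, the lowest and the closest relatives of the members. Some genes that this rule names are not reported here. No gene was named for a pattern like that of a member, since 2 libraries of 1 group give none.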

Additional observations from a re-analysis of the deposited data

How the results depend on the processing

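Taking Atf3-201 alone for Atf3 was chosen after seeing the data; the remaining alternatives were planned. No paired analysis was possible because there was 1 group. The summed level was 699 and the median 34.2 in FPKM, a unit with another scale, and the sum was 904 TPM with Atf3-201 alone. At a mean count of 100 or more, 1 member (Fos) lay 2-fold apart, since Batf3 falls below that count. The second quantification also put 2 members 2-fold apart, but these were Fosb and Batf3, with Fos at a log2 ratio of -0.96. Jund over Jun moved to 0.53 in the second quantification. Fosl2 over Fos moved to -4.34 and -4.61, and Fosb over Fos to -5.56 and -6.40, with pseudocounts of 0.1 and 0 TPM. With TPM in place of scaled counts, the Atf3 ratio was 0.53. Of the 10 member levels, 8 moved by less than 1 SD in the second quantification, Jund and Batf2 being the exceptions. An SD of 2 libraries is a rough yardstick. Batf2 moved only from 89.3 to 88.0 TPM, past its small SD of 0.311, whereas Batf moved from 289 to 268 TPM within its SD of 32.0. With the deposited posterior mean TPM 3 levels moved by more, Fosb to 0.25, Fosl2 to 0.515 and Batf2 to 87.0 TPM. With Atf3-201 alone the mean of Atf3 was 290 TPM. Of the 10 leading transcript shares, 7 stayed within 1 SD in the second quantification. Among the 7 were Atf3-201 and Fosb-201, whose large SDs of 22.3 and 70.7 would hide most shifts. Fos-201 moved to 87.4%, Batf3-201 to 40.9% and Junb-201 to 99.9%. With expected counts in place of TPM 4 shares moved, Fos-201 to 98.7%, Batf2-201 to 83.5%, Batf3-201 to 70.7% and Batf-201 to 99.8%. DESeq2 size factors, library totals and a prior count of 5 left all 10 ratios inside their counting intervals. The second quantification left 9 inside and moved that of Batf to 0.279, past its upper bound of 0.275. Leaving out either library moved no level by more than 1 SD, which with 2 libraries holds by construction. Depth limits Fosb, Fosl2 and Batf3.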
